A study of Mus musculus with 8 samples.

Results

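The genes described here are 10 genes of the urea cycle and of periportal amino acid breakdown, chosen by name as features whose mouse symbol is Cps1, Otc, Ass1, Asl, Arg1, Nags, Slc25a15, Gls2, Hal or Sds. All 10 were found among the 41388 features counted in each library, with 1 feature each, and all are protein-coding genes counted over their exons. RNA was taken from livers of db/db mice, male littermates on the strain labelled C57B/6J that lack a working leptin receptor and become obese and diabetic. Mice were randomised at 5 weeks of age and given, through the tail vein, adenovirus encoding green fluorescent protein (AdGFP, 4 livers) or nicotinamide phosphoribosyltransferase (AdNAMPT, 4 livers). NAMPT is the enzyme that salvages nicotinamide for NAD synthesis, and the comparison asks what differs in liver RNA when it is delivered. The labels put the age at 10 weeks, overexpression lasted 4 to 5 weeks per the design text, and both groups carry the same leptin receptor defect and an adenovirus. The paper's methods, and its legend on adipose tissue of db/db mice, state shorter times after adenovirus delivery. The titles give db/db, the genotype label of AdGFP mice reads control, and the promoter that drives the transgene is not given in the sources used here. A db/db mouse without virus and a lean mouse are not among the 8 libraries, so that neither the effect of the virus nor that of diabetes on these genes is compared here.

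Amino acid breakdown releases ammonia, which hepatocytes around the portal vein convert to urea. Inside mitochondria NAGS makes the activator that CPS1 requires, CPS1 fixes ammonia as carbamoyl phosphate, OTC joins it to ornithine, and the carrier SLC25A15 brings ornithine in and takes citrulline out. In the cytosol ASS1 and ASL build and split argininosuccinate and ARG1 releases urea. The liver glutaminase GLS2, the histidine ammonia-lyase HAL and the serine dehydratase SDS free ammonia from glutamine, histidine and serine in the same periportal cells, and many of these genes are known to respond to fasting, glucagon and glucocorticoids.

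Libraries held 12006713 to 19879814 counts. The gene with the fewest reads, Nags, still had 724 to 1097 per library, so depth did not limit the values below. Hepatocyte markers were abundant, with Alb at 76700 to 99420 CPM (counts scaled to a library total of 1000000), while the kidney markers Umod and Slc12a1 had no read in any library, a count of 0 that allows up to 0.151 to 0.250 CPM. Mouse Nampt, the gene that the vector delivers, lay at 102 to 153 CPM in AdGFP and 120 to 178 in AdNAMPT, with overlapping groups (log2 fold change 0.08, limma adjusted p = 0.915). It therefore did not mark the groups apart, and AdGFP and AdNAMPT mean the libraries so labelled. AdNAMPT replicate 1 received the lowest sample weight in the fit, 0.440 against 0.811 to 1.41 elsewhere. In whole liver, fewer cells of a type and less RNA per cell cannot be told apart.

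Per kilobase of exon, the most abundant were Arg1 and Cps1. The length used is that of all exons counted for a gene, 1476 bases for Arg1 and 4563 for Asl. It is the same in every library, so the order between genes rests on it too. Arg1 averaged 1299 RPKM (CPM per kilobase of exon; SD 258.1, n = 8) and Cps1 1231 (SD 204.1), and Arg1 was the higher of the pair in 5 of 8 libraries, so their order lay within the spread. Only 53 of 12270 genes tested had a higher mean RPKM than Arg1. Ass1 followed at 473.5 RPKM (SD 55.71), below Cps1 and above Asl in every library. Asl averaged 218.6 RPKM (SD 23.43) and exceeded Gls2 in all 8 libraries, by 1.04 to 1.46 times.

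Below Asl came a group of 5 genes whose ranges overlapped from each to the next. Gls2 averaged 176.9 RPKM, Otc 173.9, Slc25a15 155.1, Sds 148.9 and Hal 129.5. Gls2 exceeded Otc in only 4 of 8 libraries and Slc25a15 exceeded Sds in 5, so neither pair could be put in order. Nags, whose product makes only an activator, was the lowest at 19.76 RPKM (SD 1.613), with 1956 genes above it, and Hal exceeded it by 4.01 to 10.6 times within a library. Together the 10 genes took 1.433% ± 0.180 (SD, n = 4) of all counts in AdGFP and 1.317% ± 0.142 in AdNAMPT, and Cps1 alone made up 43.6% to 53.6% of them.

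**Figure D1:**
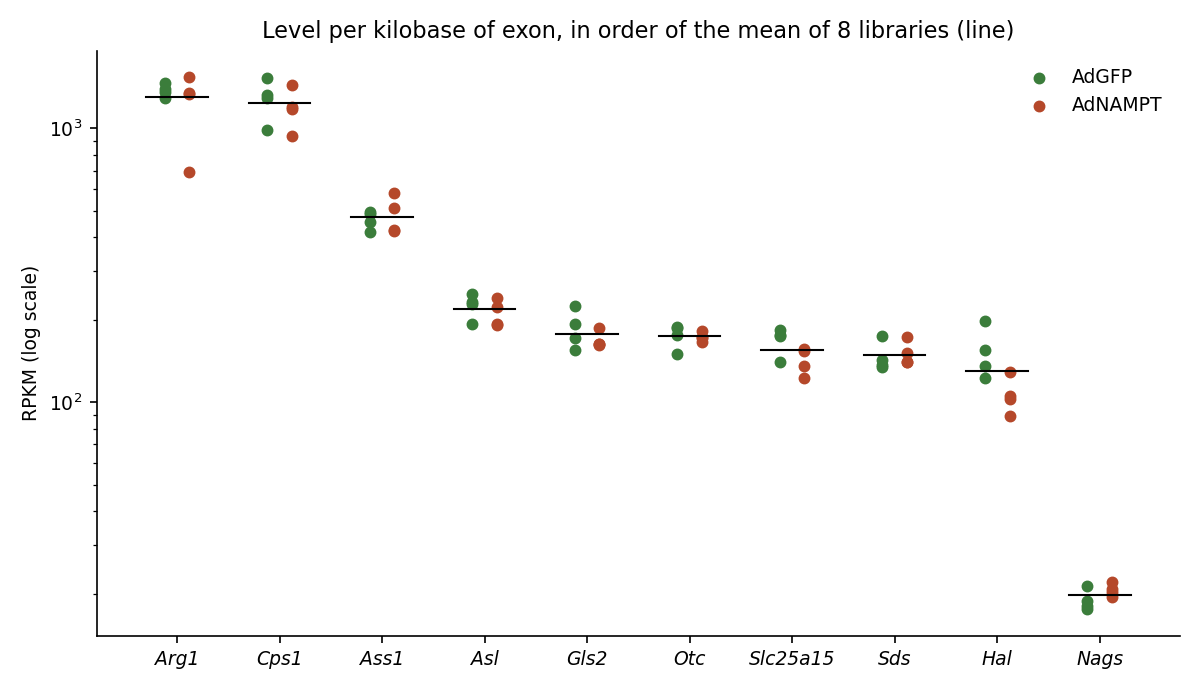
RPKM of the 10 genes on a log scale, 1 point per library (4 AdGFP, 4 AdNAMPT) and a line at the mean of all 8. Arg1 and Cps1 share the top, Gls2 to Hal overlap from each gene to the next, and Nags stands alone at 17.55 to 22.1 RPKM.

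Hal, which starts histidine breakdown, and the ornithine carrier Slc25a15 lay furthest below their AdGFP level relative to error, at 0.658 and 0.778 of it. Otc, Ass1, Sds and Nags lay closest to it, at 0.92, 0.925, 0.936 and 1.01. None of these differences passed the test over all genes: 0 of 10 genes passed limma at an adjusted p of at most 0.05, the call that 0.277% of the 12270 genes tested passed (34 genes). For 9 of 10 the estimates lay below 0, against 49.6% of all genes, with a median log2 fold change of -0.25 where that of all genes was 0.0015. In the fit scaled by library size alone the number below 0 was also 9, but the unweighted mean differences of Ass1 (0.05) and Sds (0.03) then turned positive. DESeq2 called 1 of the 10, Hal, and the edgeR tests none. Of the 10, 4 lay lower at an unadjusted p under 0.05 (Hal, Slc25a15, Gls2 and Asl), where 5.04% of all genes did. That number was 2, Hal and Slc25a15, with edgeR's quasi-likelihood test or without sample weights. It was 5 without AdNAMPT replicate 1, with Cps1 added.

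**Figure D2:**
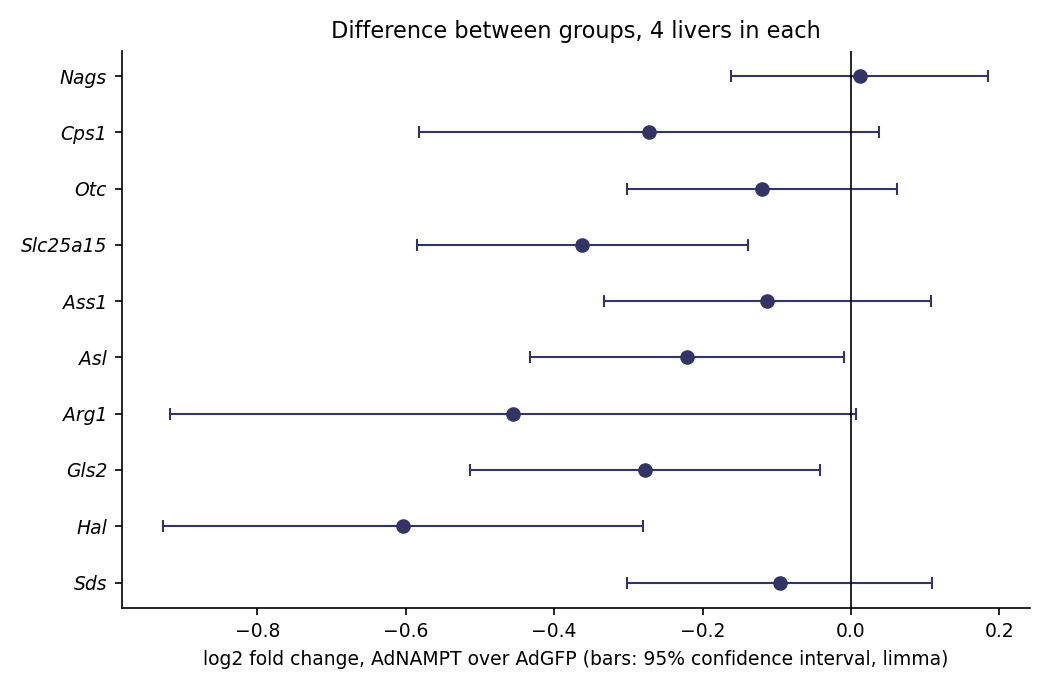
Log2 fold change of AdNAMPT over AdGFP for each gene, with limma's 95% confidence interval, 4 livers in each group. The intervals of Hal, Slc25a15, Gls2 and Asl lie below 0 and the other 6 include it, with estimates from -0.60 for Hal to 0.01 for Nags.

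RefSeq promoters on GRCm38.p6 were at hand for 5 of the 10 genes. Those of Hal and Slc25a15, the genes with the largest differences relative to their error, and of Nags, whose estimate was nearest 0, are shown as the 250 bases before the start site, 5′ to 3′ on the gene's strand. Capitals mark letters that match the CCAAT box or, read on the other strand, the TATA box.
Hal, chr10:93488518-93488767, plus strand: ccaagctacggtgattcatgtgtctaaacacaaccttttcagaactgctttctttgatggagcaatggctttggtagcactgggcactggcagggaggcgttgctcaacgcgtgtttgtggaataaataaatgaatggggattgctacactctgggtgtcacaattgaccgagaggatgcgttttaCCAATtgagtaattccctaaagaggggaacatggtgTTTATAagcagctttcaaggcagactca
Slc25a15, chr8:22398622-22398871, minus strand: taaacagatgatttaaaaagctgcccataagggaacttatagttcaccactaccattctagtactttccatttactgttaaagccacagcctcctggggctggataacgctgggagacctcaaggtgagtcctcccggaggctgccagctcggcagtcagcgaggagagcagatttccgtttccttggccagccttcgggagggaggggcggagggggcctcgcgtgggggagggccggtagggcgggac
Nags, chr11:102145263-102145512, plus strand: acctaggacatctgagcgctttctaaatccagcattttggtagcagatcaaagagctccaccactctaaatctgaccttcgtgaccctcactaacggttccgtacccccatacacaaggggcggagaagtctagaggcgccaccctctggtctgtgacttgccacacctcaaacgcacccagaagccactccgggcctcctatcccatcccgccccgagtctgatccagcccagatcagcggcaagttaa
Both strands were searched for 5 motifs, none of which holds another. They were the TATA box spelled TATAAA, the CCAAT box, the part of a CREB site spelled TGACG, the part of a glucocorticoid receptor site spelled AGAACA and the C/EBP palindrome spelled TTGCGCAA. In Hal the CCAAT box began 64 bases before the start and the TATA box, on the other strand, 28 bases before it. The stretches of Slc25a15 and Nags held none of these letters, and neither did those of Otc and Ass1; past the start, Nags held the CREB letters on the other strand after 31 bases. These are matches of letters only. Over 300 bases around each start, 37.4% of the 32851 promoters in the table held the CCAAT box, 13.6% the TATA box, 20.8% the CREB part, 19.0% the glucocorticoid receptor part and 0.183% the C/EBP palindrome, so the letters found in Hal are common ones. GC content was 45.6% before Hal, 57.6% before Slc25a15 and 55.6% before Nags. RefSeq gives Slc25a15 a further start site, 344 bases inside the counted gene, with 80.4% GC before it and no match; the site printed is the one at the gene's 5′ end.

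The values by library that follow are CPM scaled by TMM, edgeR's trimmed mean of M-values, in the order of replicates 1 to 4. TMM factors were 0.947 to 0.977 in AdGFP and 1.011 to 1.054 in AdNAMPT. Ribosomal RNA features took 1.766% to 2.626% of counts in AdGFP and 0.863% to 1.618% in AdNAMPT. Neither overlapped between the groups. With library size alone, the median log2 fold change of all genes was 0.086, against 0.0015 with TMM. Nags (chromosome 11, 102145513 to 102149477, GRCm38) lay at 55.71, 55.51, 52.05 and 63.28 in AdGFP and at 60.71, 58.67, 53.31 and 57.38 in AdNAMPT. The AdNAMPT values fell inside the AdGFP range. Its log2 fold change was 0.01 ± 0.08 (SE; 95% interval -0.16 to 0.19; limma adjusted p = 0.979), and the sign turned when single libraries were left out. Of its exons, 443 bases overlap Gm11586 on the opposite strand, and the strand setting of the counting is not stated.

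Cps1 (chromosome 1, 67123026 to 67231259), the entry enzyme of the cycle, lay at 8845, 5931, 7692 and 7448 in AdGFP and at 7733, 6623, 5009 and 6507 in AdNAMPT. AdNAMPT replicate 3 was the lowest of the 8 and AdGFP replicate 1 the highest, and the other values interleaved. The difference was -0.27 ± 0.14 on the log2 scale (adjusted p = 0.577, limma). Otc (chromosome X, 10252305 to 10321024) lay at 827.4, 691.2, 779.4 and 830.2 in AdGFP and at 710.1, 767.3, 679.0 and 727.9 in AdNAMPT. Its groups overlapped, with a difference of -0.12 ± 0.08.

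Slc25a15 (chromosome 8, 22375554 to 22398621), the ornithine and citrulline carrier, lay at 637.9, 522.7, 661.2 and 630.1 in AdGFP. In AdNAMPT it lay at 511.0, 539.9, 450.7 and 421.6. AdNAMPT replicates 1, 3 and 4 were below all 4 AdGFP livers, and the groups overlapped only through replicate 2 of each. The log2 fold change was -0.36 ± 0.10 (95% interval -0.58 to -0.14), a level of 0.778 of AdGFP, with an unadjusted p of 0.00438 and an adjusted p of 0.331 by limma. Over 17 alternatives the estimate ranged from -0.47 to -0.26 and the adjusted p from 0.172 to 0.615.

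In the cytosol, Ass1 (chromosome 2, 31470207 to 31520672) lay at 1171, 1048, 1097 and 1189 in AdGFP and at 1293, 972.2, 943.7 and 1183 in AdNAMPT. Its AdNAMPT values spanned the AdGFP range on both sides, and the difference was -0.11 ± 0.10. Asl (chromosome 5, 130011258 to 130025132) lay at 1093, 954.5, 1187 and 1108 in AdGFP and at 1062, 1016, 847.9 and 869.6 in AdNAMPT. AdNAMPT replicates 3 and 4 were below every AdGFP liver, replicates 1 and 2 were not, and the difference was -0.22 ± 0.10 (unadjusted p = 0.0421, adjusted p = 0.503, limma).

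Arg1 (chromosome 10, 24915208 to 24927470), which completes the cycle, lay at 2152, 2066, 2257 and 2088 in AdGFP, the tightest of the 10 genes in that group. In AdNAMPT it lay at 1906, 1018, 2184 and 1976. Replicate 2 alone was low, with a deposited CPM that was 49.2% of the mean of the other 3, and of those 3 replicate 3 lay inside the AdGFP range and replicates 1 and 4 just below it. The SD of log2 values was 0.06 in AdGFP and 0.50 in AdNAMPT. The log2 fold change of -0.45 ± 0.21 (limma adjusted p = 0.527) became -0.05 without that library. In that liver the other 9 genes lay inside the range of the remaining AdNAMPT livers, except Otc and Slc25a15, which were above it, and Sds, just below it at 225.8 against 226.3.

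**Figure D3:**
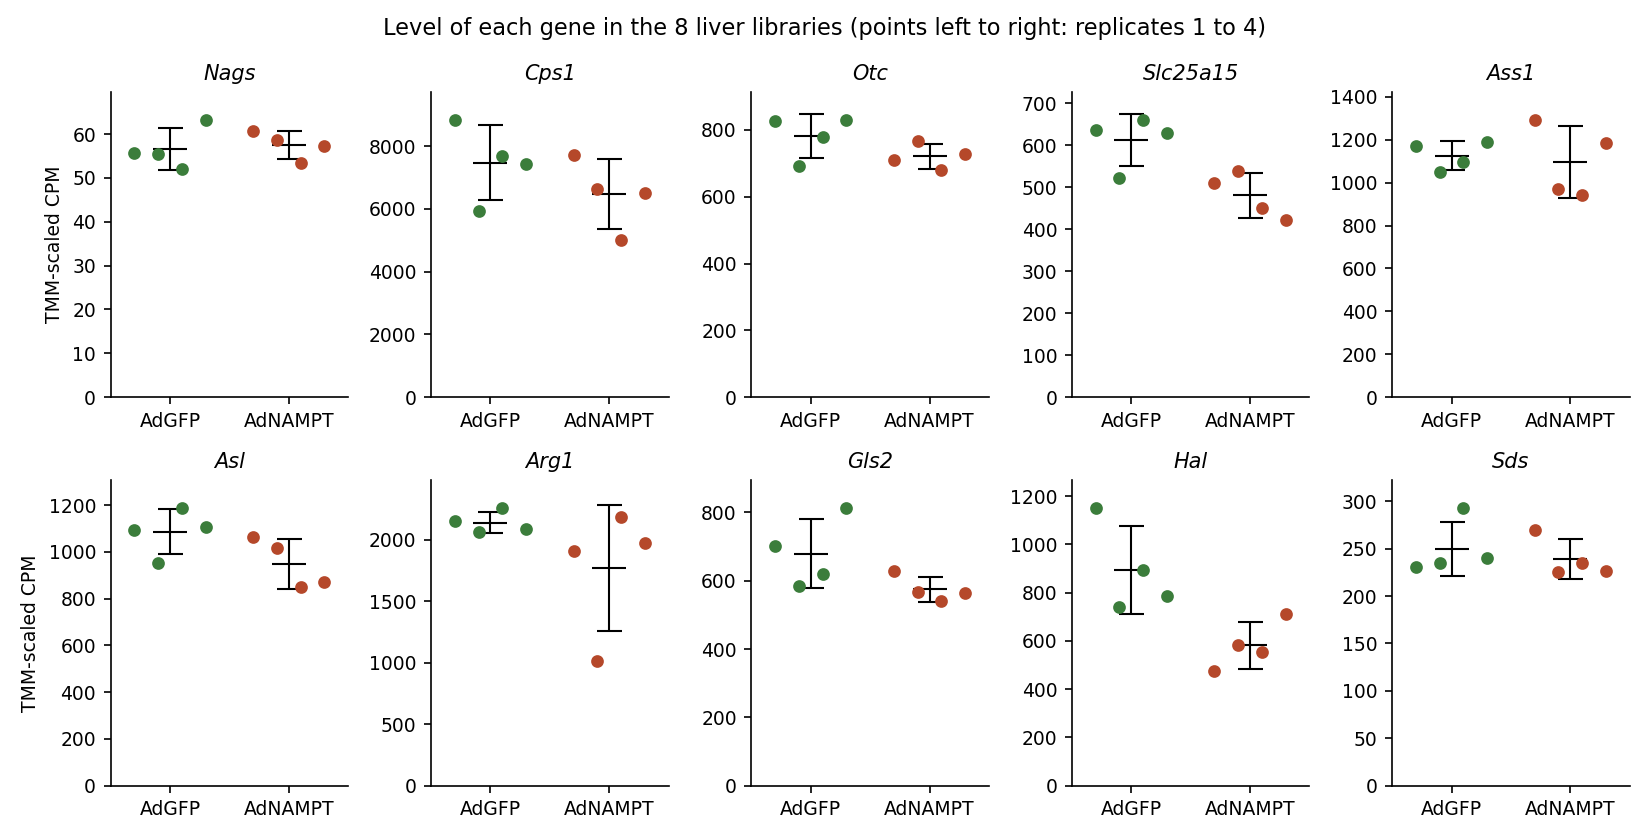
TMM-scaled CPM of each gene in each library (points, replicates 1 to 4 from left to right) with the mean and SD of each group of 4. Hal is the gene whose groups do not overlap, and Arg1 shows the single low AdNAMPT library at 1018.

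Among the amino acid enzymes, Hal (chromosome 10, 93488768 to 93519304), the first enzyme of histidine breakdown, had the largest difference. It lay at 1150, 740.5, 894.8 and 787.0 in AdGFP and at 476.6, 582.7, 552.2 and 713.6 in AdNAMPT. All 4 AdNAMPT livers were below all 4 AdGFP livers, a separation downward that 2.7% of all genes showed on this scale. Hal was the only one of the 10 to show it. On deposited CPM, where 0.856% of genes separated, AdNAMPT replicate 4 (714.0) exceeded AdGFP replicate 2 (681.9) and no member separated. Hal's level in AdNAMPT was 0.658 of that in AdGFP (95% interval 0.526 to 0.824), a log2 fold change of -0.60 ± 0.15 with an unadjusted p of 0.00174 and an adjusted p of 0.228 by limma. The DESeq2 Wald test, which called 0.611% of genes, called Hal (log2 fold change -0.62, adjusted p = 0.0244). edgeR's exact test gave an adjusted p of 0.0955 and its quasi-likelihood test 0.359. The exact permutation test of its log2 values gave p = 0.0286, the smallest that 4 against 4 allows, and 0.0571 when scaled by library size alone. Over 17 alternatives the estimate ranged from -0.69 to -0.46 and the adjusted p from 0.0244 to 0.419, and the estimate was -0.54 without AdNAMPT replicate 1 (limma adjusted p = 0.256).

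Gls2 (chromosome 10, 128194457 to 128210004) lay at 701.3, 585.5, 619.2 and 812.1 in AdGFP and at 628.5, 565.9, 541.1 and 563.8 in AdNAMPT. AdNAMPT replicates 2 to 4 were below every AdGFP liver and replicate 1 was above 2 of them. The difference was -0.28 ± 0.11 (unadjusted p = 0.0249, adjusted p = 0.467, limma), and 97 bases of its exons overlap Spryd4 on the opposite strand. Sds (chromosome 5, 120476531 to 120483932) lay at 230.9, 235.4, 292.7 and 240.4 in AdGFP and at 269.8, 225.8, 235.4 and 226.3 in AdNAMPT. Its groups overlapped, with a difference of -0.10 ± 0.09, and 501 bases of its exons overlap Gm15690 and Plbd2 on the opposite strand.

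Ratios of RPKM within a library do not depend on how libraries are scaled, and 7 were computed. Slc25a15 over Otc, the carrier against the enzyme whose substrate it imports, was 0.947, 0.929, 1.04 and 0.933 in AdGFP and 0.884, 0.865, 0.816 and 0.712 in AdNAMPT. The groups did not overlap (exact permutation p = 0.0286, two-sided; 0.2 after Benjamini-Hochberg adjustment over the 7 ratios). Hal over Sds was 1.05 ± 0.266 (SD, n = 4) in AdGFP and 0.716 ± 0.167 in AdNAMPT, with overlapping groups (exact permutation p = 0.0857, adjusted p = 0.3). Cps1 over Otc was 7.27 ± 0.721 and 6.84 ± 1.11 (exact permutation p = 0.571), and the other 4 ratios gave exact permutation p of 0.2 or more.

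Over the 8 livers the genes varied together in part. Of 45 pairs, 40 had a positive Pearson r of log2 TMM-scaled CPM, with a median of 0.39. The closest pair was Asl and Slc25a15 (r = 0.928, exact permutation p = 0.00146, 0.0657 after Benjamini-Hochberg adjustment over the 45 pairs; Spearman rho = 0.881, p = 0.00724). With each group's mean removed their r was 0.917, and without the 2 livers farthest from the median of Asl it was 0.82. Cps1 and Asl followed at 0.826 (exact permutation p = 0.0108, adjusted p = 0.221). No pair passed the adjusted threshold, and 9 had an unadjusted p under 0.05, all of them among Cps1, Otc, Ass1, Asl, Slc25a15 and Gls2. With group means removed, r of these 9 pairs ran from 0.445 (Slc25a15 and Gls2) to 0.917. Without the 2 livers farthest from the median of 1 gene of the pair, it ran from 0.352 (Otc and Gls2) to 0.86. Arg1, Nags, Hal and Sds joined none of these pairs, and Slc25a15 with Hal (r = 0.637) fell to 0.01 with group means removed. The r of Arg1 depended on AdNAMPT replicates 1 and 2, the livers farthest from its median. Without them it rose from 0.359 to 0.725 with Sds and from 0.108 to 0.569 with Slc25a15. It fell from 0.39 to 0.202 with Hal, from 0.285 to 0.0501 with Gls2 and from -0.319 to -0.594 with Nags. With libraries scaled by size alone, 4 pairs had an unadjusted p under 0.05, the lowest adjusted p was 0.293 and r ran from -0.593 to 0.888. All pairs share the same 8 libraries and scale factors.

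**Figure D4:**
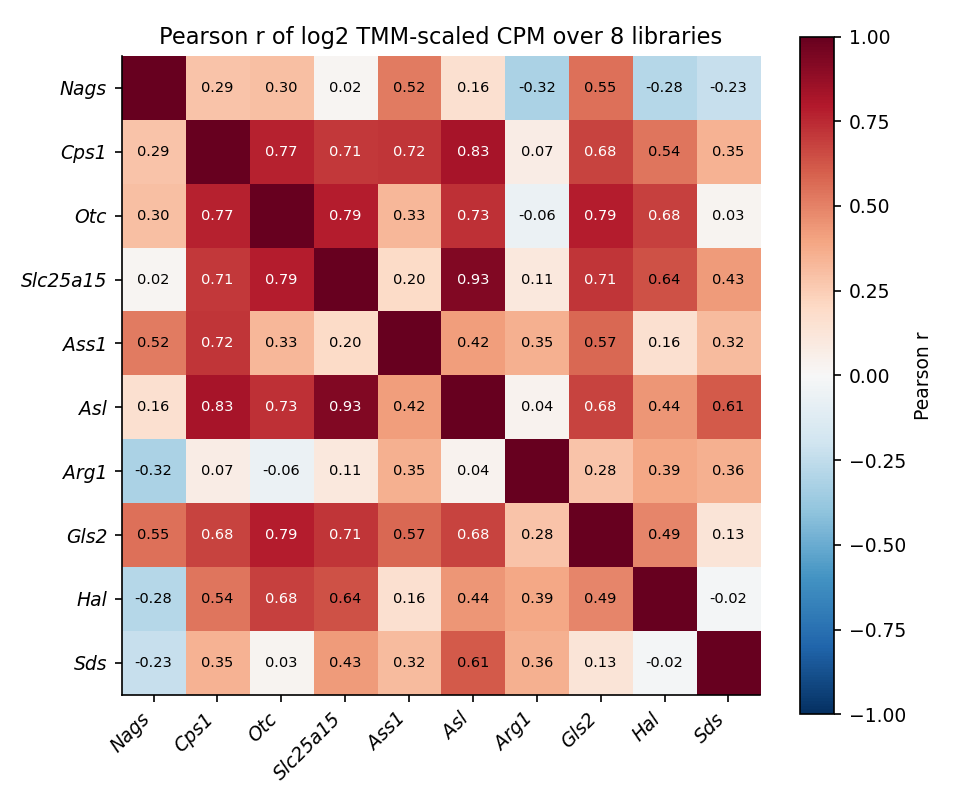
Pearson r between each pair of the 10 genes over 8 libraries, on log2 TMM-scaled CPM (red positive, blue negative). Cps1, Otc, Slc25a15, Asl and Gls2 form the block of high values, up to 0.93, while r of Arg1 with the other genes runs from -0.32 to 0.39.

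Within groups, Arg1 had the largest SD of log2 values (0.356, above 84.8% of all genes), then Hal (0.262) and Cps1 (0.25). Nags (0.1) and Otc (0.102) were the steadiest, where the median of all genes was 0.178. Outside the 10, the genes whose pattern over the 8 libraries was most like that of Hal were Crot (r = 0.978), Dync1li2 (0.962) and Acat3 (0.95). For Arg1 they were Rsbn1l (0.941, Spearman rho 0.714), Hpf1 (0.921, rho 0.643) and Fam84a (0.912, with a rho of only 0.238). For Nags they were Tex261 (0.976), Amotl1 (0.956) and Rspry1 (0.952). These are the highest of 12270 genes each and are given as a description.

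The other genes of the pathway were read from 4 lists of 96 genes in all, of which 87 were tested. None was called by limma, which called 0.277% of all genes. At an unadjusted p under 0.05, 22 of the 87 lay lower, a larger share than the 5.04% of all genes, and 4 higher. Estimates were below 0 for 63 of the 87, a larger share than the 49.6% of all genes, and above it for 24, with a median of -0.12. DESeq2, which called 0.611% of all genes, called 3 of them (Csad, Onecut1 and Slc38a2), and edgeR's exact test, which called 65 of 12270 genes, called 2 (Csad and Onecut1). Beside the urea cycle, 10 of 14 genes had estimates below 0 and 5 of these an unadjusted p under 0.05. Car5a, the mitochondrial carbonic anhydrase that supplies CPS1 with bicarbonate, was at -0.30 ± 0.09, with TMM-scaled CPM of 61.41 to 74.34 in AdGFP and 43.7 to 56.89 in AdNAMPT. On deposited CPM the groups of Car5a overlapped, at 56.55 to 71.18 in AdGFP and 45.14 to 57.19 in AdNAMPT. Oat, which makes and uses ornithine, was at -0.56 ± 0.21, and Slc25a13, the aspartate carrier that feeds ASS1, at -0.21 ± 0.08 (limma adjusted p of 0.354, 0.453 and 0.476). Oat is also a pericentral marker, and its estimate was -0.31 without AdNAMPT replicate 3 and -0.86 without AdNAMPT replicate 2.

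Of 40 tested genes of amino acid breakdown, 31 had estimates below 0, 11 of them with an unadjusted p under 0.05. Tat, the tyrosine aminotransferase, was at -0.56 ± 0.15 (limma adjusted p = 0.318) and Agxt, which converts glyoxylate to glycine, at -0.39 ± 0.12 (adjusted p = 0.371). Csad, an enzyme of taurine synthesis from cysteine, went the other way. It lay at 10.75, 12.5, 11.98 and 9.312 TMM-scaled CPM in AdGFP and at 44.42, 24.69, 30.08 and 16.55 in AdNAMPT, without overlap (log2 fold change 1.20 ± 0.22, limma adjusted p = 0.0606, and 8.84e-06 to 0.246 over 17 alternatives, 5 of which called it). The share of all genes that separated upward was not counted.

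Amino acid carriers had 11 of 15 estimates below 0. The glutamine and alanine carrier Slc38a2 was at -0.58 ± 0.14 (limma adjusted p = 0.211), the cationic carrier Slc7a2, which takes up arginine and ornithine, at -0.53 ± 0.15 (adjusted p = 0.349), and Slc3a2, the shared heavy chain of several exchangers, at -0.34 ± 0.09 (adjusted p = 0.3). Regulators were split, 11 below 0 and 7 above, with a median of -0.04. The hepatocyte factor Onecut1 was at 0.92 ± 0.29 (limma adjusted p = 0.385) and the amino acid catabolism factor Klf15 at -0.31 ± 0.08 (limma adjusted p = 0.3). Onecut1 was low throughout, at 3.513 to 5.617 TMM-scaled CPM in AdGFP, and its highest value, 23.46, came from AdNAMPT replicate 1.

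Markers of place along the lobule were read beside these genes. Of 9 other periportal markers 5 had estimates below 0 (median -0.18), and of 12 pericentral markers 9 did (median -0.20). The gluconeogenic enzyme Pck1, periportal, was at -0.49 ± 0.17 and Hsd17b13, a lipid droplet enzyme, at 0.28 ± 0.10 (limma adjusted p of 0.425 and 0.445). Pigr, the receptor that carries immunoglobulin A into bile, was at -0.19 ± 0.08 (limma adjusted p = 0.487). Its TMM-scaled CPM were 1153 to 1302 in AdGFP and 1014 to 1148 in AdNAMPT, without overlap, a separation downward that 2.7% of all genes showed. On deposited CPM its groups overlapped. Among pericentral genes, whose smallest p was that of Oat, Lhpp was at -0.32 ± 0.14 and Rgn at -0.19 ± 0.09 (limma adjusted p of 0.5 and 0.539). Rgn also separated on TMM-scaled CPM, at 1374 to 1499 in AdGFP and 1029 to 1372 in AdNAMPT, and overlapped on deposited CPM.

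Of 6 hepatocyte markers 4 had estimates below 0 and 2 above. They summed to 102000 to 128000 CPM in AdGFP and 101000 to 127000 in AdNAMPT. Most of each sum was Alb, at 76700 to 99420 CPM, so the sums say little about the other markers. Ahsg was at -0.44 ± 0.13, the only hepatocyte marker with an unadjusted p under 0.05 (0.00545, limma adjusted p = 0.357). All 5 Kupffer cell markers had estimates below 0 (median -0.45), 3 with an unadjusted p under 0.05 and 0 called by limma. edgeR's exact test and DESeq2 called Vsig4 (log2 fold change -0.51 ± 0.12 by limma, adjusted p of 0.211 by limma, 0.0455 by edgeR's exact test and 0.0393 by DESeq2). The exact test called 65 of 12270 genes and DESeq2 0.611%. The groups of Vsig4 did not overlap on TMM-scaled or deposited CPM, scales on which 2.7% and 0.856% of all genes separated downward. The 5 Kupffer markers summed to 208 to 258 CPM in AdGFP and 150 to 248 in AdNAMPT, and all 5 passed the filter on low counts. The endothelial, stellate and bile duct markers had summed ranges that overlapped between the groups. At an unadjusted p under 0.05, 1 bile duct marker, Sox9 (0.81 ± 0.33), and 1 stellate marker, Col1a1 (0.64 ± 0.24), lay higher (limma adjusted p of 0.487 and 0.453). The other 4 stellate markers had estimates below 0. Of 4 bile duct markers tested, 3 had estimates above 0 and Krt19 was at -0.37 ± 0.37. Sox9 was low throughout, at 0.358 to 1.75 CPM. Lymphocyte markers, none of which passed the filter, summed to 0.658 to 0.896 CPM in AdGFP and 1.08 to 2.36 CPM in AdNAMPT, without overlap. Many of the single values lay near or below the floor of 3 counts (0.151 to 0.250 CPM by library). Cd3e, for one, had no read in AdGFP replicates 1, 2 and 4, so the gap between these sums rests on few reads. The part of these markers in the values of the 10 genes was not tested. Of 5 kidney and intestine markers only Fabp2 passed the filter, at 0.25 ± 0.23 (limma adjusted p = 0.766).

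**Figure D5:**
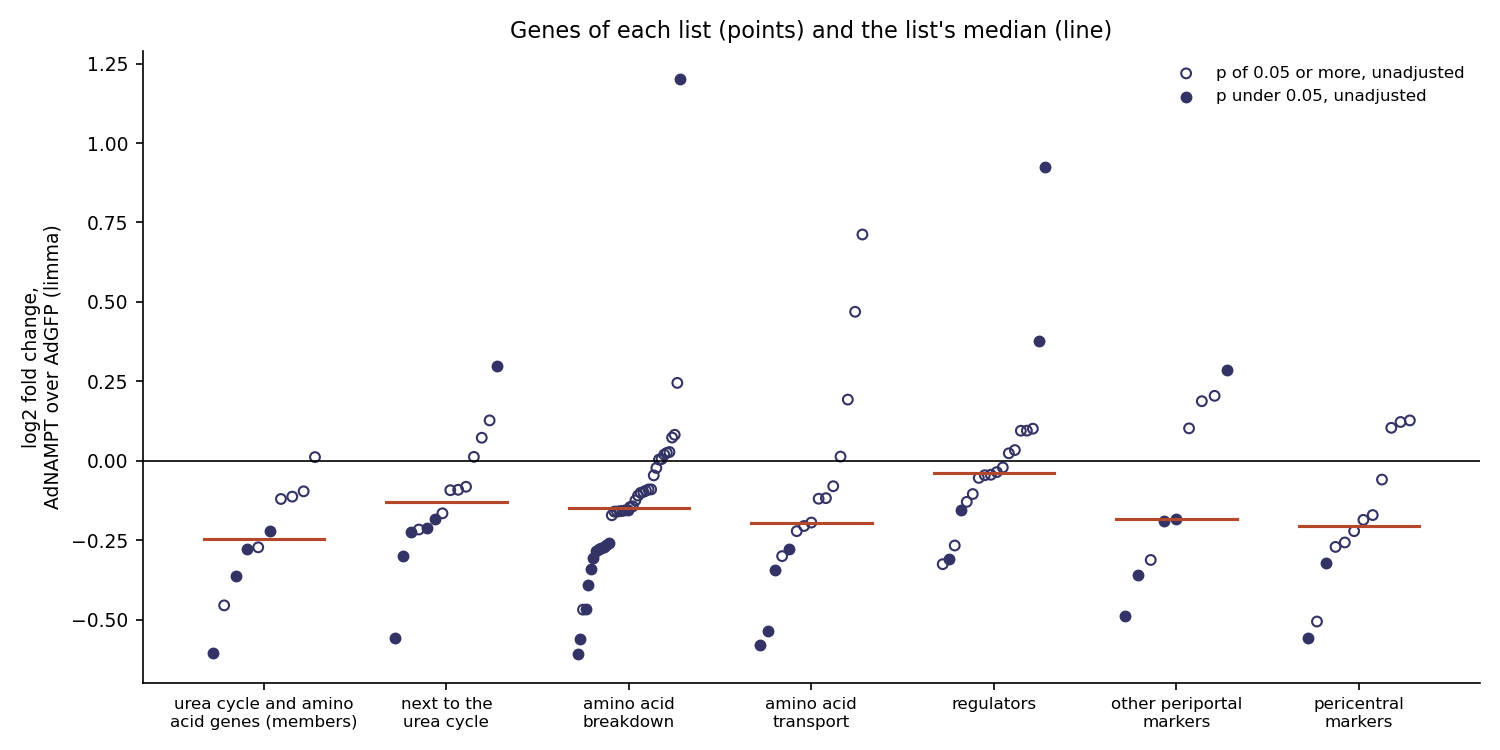
Log2 fold change of AdNAMPT over AdGFP for the genes of each list (filled where the unadjusted limma p was under 0.05) with each list's median as a line. Among the 7 sets drawn, which leave out markers of other cell types, medians run from -0.25 for the 10 urea cycle and amino acid genes to -0.04 for the regulators, and Csad is the point at 1.20.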

How the data were processed

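Liver RNA of 8 db/db mice was sequenced, 4 in each group per the study, so that the spread is between mice. The authors aligned single reads with STAR (2.4.0b in the submitters' processing notes) to GRCm38 with Ensembl annotation and counted reads per gene with featureCounts 1.4.5; whether counting used strand is not stated. The deposited counts are whole reads over 41388 features. The deposited CPM are each count scaled to its library's total, and the deposited RPKM are those CPM per kilobase of exon. The labels name Ribo-Zero where the methods describe poly-A selection.

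Symbols came from GENCODE M21, which named 40254 features. After 355 ribosomal RNA features were left out, genes over 1 CPM in at least 3 libraries (12270) were fitted with group as the only term. The fit was limma's voomWithQualityWeights on TMM-scaled counts, which the study's methods name without giving model terms. The paper's legend on db/db liver names edgeR's exact test for its pathway panel. Genes were called where the p adjusted by Benjamini-Hochberg did not exceed 0.05. All 10 members passed the filter. Single genes were tested by exact permutation over 70 assignments. Log2 CPM used a prior count of 2. The floor of 3 counts covers counting error only. Replicates of a group differed by more than sampling noise in every pair.

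Members, lists and tests were chosen with earlier results of these data known. Named genes were all members, genes called in a list, the 3 of smallest p in each pathway or zonation list, and the 3 genes most like Hal (largest SD), Arg1 and Nags (highest and lowest mean RPKM). A gene that this rule names among the regulators is not reported here. Lists held genes beside the urea cycle, of amino acid breakdown, carriers, regulators, zonation markers and markers of other cells; Rhbg, Bckdhk and Tf matched no symbol, and 9 genes of the 96 in the pathway lists were not tested. Alternatives were edgeR's quasi-likelihood and exact tests, DESeq2, no sample weights, other scaling and filters, a replicate block, and each library left out. The fits were tested on simulated counts. The fits ran in R 4.3.3 (limma 3.58.1, edgeR 4.0.16 and, for the alternative, DESeq2 1.42.0). Values, permutations and figures were computed with scipy 1.17.1, numpy 2.4.6 and pandas 2.3.3 under Python 3.11.15, and drawn with matplotlib 3.10.9.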

Additional observations from a re-analysis of the deposited data

Results flagged for a closer look

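Gls2 in AdNAMPT replicate 1 lay at 649.2 CPM, apart from the other 3 AdNAMPT livers at 560.1 to 566.5, with a gap that was 0.929 of the group's range, past Dixon's 95% critical value for 4 samples. It was 1 of 20 groups of 4 examined (10 genes in 2 groups), and chance alone gives 1. Arg1 in AdNAMPT replicate 2, at 1019 CPM, had a gap of 0.765 of the range and did not pass that value.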

How the results depend on the processing

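Estimates of Cps1, Otc, Ass1, Asl, Arg1, Slc25a15, Gls2, Hal and Sds stayed below 0 under all 17 alternatives, and no member other than Hal with DESeq2 was called. Over all genes, 34 were called by limma, 65 by edgeR's exact test and 75 by DESeq2. Members called numbered 0 by limma and 1 by DESeq2. Calls in the pathway lists numbered 0 by limma, 2 by edgeR's exact test, 3 by DESeq2, 1 with library size alone, 1 with the replicate block, and 0 to 1 with single libraries left out, the 1 (Csad) being without AdNAMPT replicate 4. Members lower at an unadjusted p under 0.05 numbered 4 by limma and 2 by edgeR's quasi-likelihood test, by its exact test, without sample weights and with library size alone, and 2 to 5 with single libraries left out (2 without AdGFP replicate 4). A single member (1, Hal) passed p under 0.05 by exact permutation and 0 with library size alone. The estimate of Nags, 0.01, ranged from -0.0374 to 0.0736 with single libraries left out, and turned negative without AdGFP replicates 1 (-0.00773) and 3 (-0.0374) and AdNAMPT replicates 1 (-0.0112) and 2 (-0.0285). That of Arg1 was -0.05 without AdNAMPT replicate 2, and leaving out AdNAMPT replicate 3 or 4 gave -0.77 or -0.692. Other member estimates that moved by over 1.5 times with 1 library left out were those of Sds (-0.0148 without AdGFP replicate 3), Gls2 (-0.183 without AdGFP replicate 4), and, without AdNAMPT replicate 3, Cps1 (-0.165), Otc (-0.074) and Asl (-0.14). With library size alone Otc was at -0.0361, Ass1 at -0.0305, Sds at -0.0134 and Asl at -0.136. The causes were not tested beyond what the settings themselves change. Replicate numbers are shared only as numbers: same-numbered libraries correlated at 0.225, -0.0451, 0.213 and 0.00516 in their deviations from the group means. With the replicate block limma called 41 genes, 4 higher and 37 lower, and 0 members; Hal was at -0.56 (adjusted p = 0.379) and Slc25a15 at -0.38 (adjusted p = 0.416). With at least 724 counts per member and library, depth was not the limit.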
